A study of Arabidopsis with 14 samples.

Results

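The difference between AtC3H26 OX and WT in the NaCl response of each gene was measured in 10 of the 14 mRNA-Seq libraries of the study. For each gene, the difference between AtC3H26 OX and WT without NaCl was subtracted from the difference between AtC3H26 OX and WT with NaCl. This difference of differences is the interaction of the line with NaCl. A positive value means that the gene responded to NaCl more upward, or less downward, in AtC3H26 OX than in WT. A negative value means the opposite. A gene was kept where 2 or more of the 10 libraries reached 1 FPKM, which left 20878 of the 37980 genes listed. FPKM is the number of sequenced fragments of a gene, scaled by its length and by the mapped reads of the library.

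All libraries came from whole Arabidopsis seedlings of the Col-0 background, 10 days old, grown in cycles of 8 h light and 16 h dark. WT and AtC3H26 OX were each sampled untreated and after 150 mM NaCl, given on filter paper soaked in MS solution. The labels give times of 1, 2 and 4 h for the NaCl groups of both lines. The methods state that RNA of these times was combined for WT and for AtC3H3 OX, and do not state it for AtC3H26 OX. Each group held 2 libraries, except that untreated WT came in 2 sets of 2 libraries, numbered 1 and 2 in the labels, which entered as 1 group of 4. The labels do not tell which set was grown with AtC3H26 OX. The NaCl contrast includes the move from agar to wet paper, and seedlings moved without NaCl were not analysed here. OX stands for overexpression, which the methods describe, with a modified CaMV 35S promoter and an N-terminal HA tag, for AtC3H3. The construct and the number of lines behind the AtC3H26 OX label are not given in the sources used here. The p-values measure only the spread between these libraries.

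AtC3H26 encodes a CCCH zinc-finger protein and is the paralog of AtC3H3, whose product is known to bind and cut RNA. High salt acts on a plant cell as a loss of water and as an excess of sodium. The loss of water raises abscisic acid (ABA), which frees SnRK2 kinases from PP2C phosphatases such as HAB1 and so switches on genes such as RD29B and RAB18. An ABA-independent route acts through DREB2 factors on genes such as RD29A. Seedlings under salt also slow cell division and switch on jasmonate and wound genes.

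The gene named in the label was examined first. AtC3H26 (AT2G32930 on chromosome 2, listed as ZFN2) had 2.94 and 3.53 FPKM in set 1 of untreated WT, 2.81 and 2.57 in set 2, and 2.51 and 2.34 in the untreated libraries labelled AtC3H26 OX. Under NaCl the values were 7.97 and 7.50 FPKM in WT, and the libraries labelled AtC3H26 OX stood at 5.11 and 4.39. Every library labelled AtC3H26 OX thus lay below every WT library of the same treatment. The log2 difference was -0.21 (limma, adjusted p = 0.34) without NaCl and -0.60 (adjusted p = 0.0658) with NaCl, and neither passed the test. The transcript was therefore not higher in the libraries labelled AtC3H26 OX, and AtC3H26 OX denotes the label in what follows. The interaction of AtC3H26 was -0.40 (standard error 0.17, adjusted p = 0.311). That of AtC3H3 (AT1G04990 on chromosome 1) was 0.01 (standard error 0.14, adjusted p = 0.977), with 20.7 and 23.0 FPKM in WT and 20.9 and 23.9 FPKM in AtC3H26 OX under NaCl. GAPC1, a glycolytic enzyme used as a reference gene, ranged from 408 to 474 FPKM over the 10 libraries, and its interaction of 0.29 did not pass the test (adjusted p = 0.137), but passed against set 1 alone (adjusted p = 0.0374) and the separate sets (adjusted p = 0.0344).

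The 10 libraries were alike in overall measures. FPKM summed to between 665439 and 719084 per library, and between 24089 and 24543 genes were above 0. The relative depth, read from the steps that 1 fragment makes in low FPKM values and set to 1 in replicate 2 of WT with NaCl, ranged from 0.638 to 1. Both untreated AtC3H26 OX libraries were the shallowest, at 0.752 and 0.638. Absolute depth is not known from FPKM, so no counting interval is given. Pearson's r between replicates over the genes tested ranged from 0.978 to 0.984, where genes are not independent replicates.

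At the threshold of 0.05 on the adjusted p, the interaction was called positive for 140 genes (0.671% of those tested) and negative for 157 genes (0.752%), 1.42% in all (limma with trend, 10 libraries). On the scale of log2(FPKM + 1), it exceeded 2-fold for 54 of the positive and 77 of the negative genes. Without adjustment, 1658 genes were positive and 1447 negative at a p under 0.05. The median interaction of all genes tested was -0.0018. The counts depended on every library of the groups of 2. Leaving out replicate 1 or 2 of WT with NaCl left 57 or 56 calls, of AtC3H26 OX with NaCl 70 or 59, and of untreated AtC3H26 OX 79 or 66. Leaving out any 1 of the 4 untreated WT libraries left 231 to 296. For a given spread, a group with fewer libraries has a larger standard error. A call lost in this way, here or below, therefore does not by itself mean a smaller effect. Against set 1 of untreated WT alone the calls were 1342 positive and 799 negative, and against set 2 alone 649 positive and 1038 negative. Each of the 297 genes was also called with the same sign against each set alone. However, 125 genes were called with opposite signs against the sets, and none of these were among the 297.

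**Figure D1:**
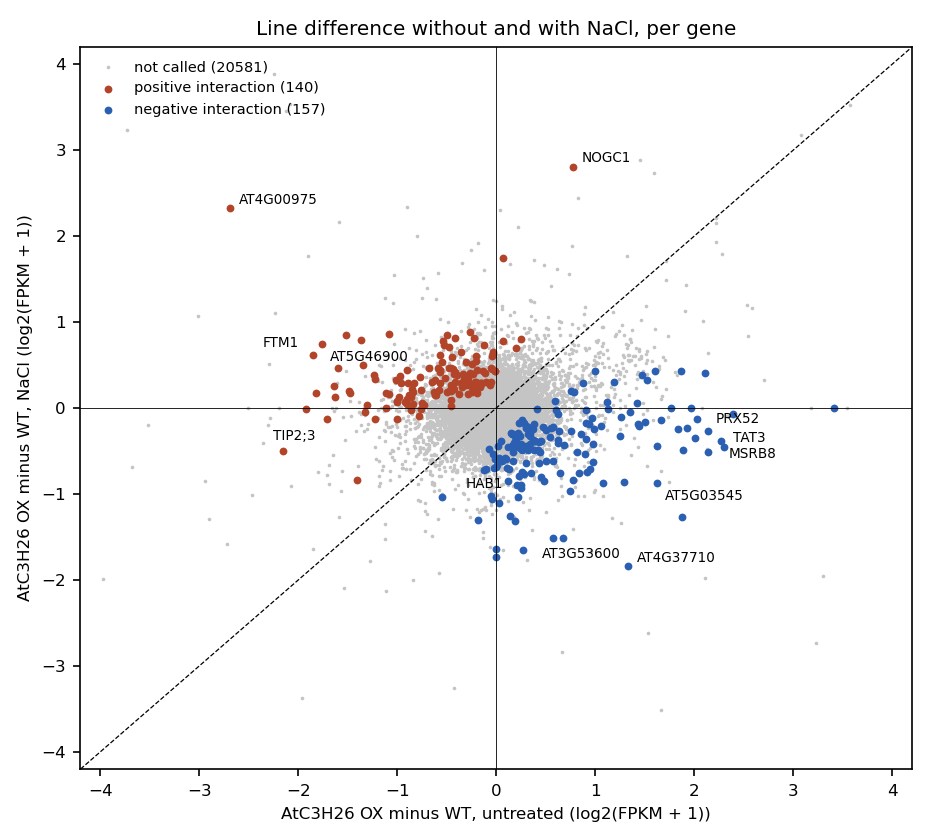
Difference between AtC3H26 OX and WT without NaCl (horizontal axis) and with NaCl (vertical axis), both on the scale of log2(FPKM + 1), for the 20878 genes tested, where the vertical distance from the dashed diagonal is the interaction. The 140 genes with a positive interaction (red) lie above the diagonal, mostly on the side that is lower in untreated AtC3H26 OX, and the 157 with a negative interaction (blue) lie below it.

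The interaction had a part without NaCl and a part with NaCl. Among the 140 positive genes, 91 passed the test for a lower level and 0 for a higher level in untreated AtC3H26 OX than in untreated WT, where 2.44% and 1.77% of all genes were called, 4.21% in all. With NaCl, 29 of the 140 were called higher and 1 lower in AtC3H26 OX, against 0.330% and 0.575% of all genes, 0.905% in all. Among the 157 negative genes, 89 were called higher and 1 lower in untreated AtC3H26 OX, and 54 were called lower and 1 higher with NaCl. The untreated difference was the larger of the pair for 86 positive genes (61.4%) and 82 negative genes (52.2%), beside 10888 of all 20878 genes (52.2%). In 125 of the 140 positive genes both untreated AtC3H26 OX libraries lay below all 4 untreated WT libraries, which held for 15.8% of all genes. In 133 of the 157 negative genes they lay above them, which held for 12.9% of all genes. With NaCl, both AtC3H26 OX libraries lay above both WT libraries in 118 positive genes (24.5% of all genes) and below them in 127 negative genes (29.3% of all genes). These counts rest on the libraries that gave the interaction and only describe it.

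In terms of the NaCl response, 27.3% of all genes rose and 27.5% fell in WT, 54.8% in all. In AtC3H26 OX 25.0% rose and 22.8% fell, 47.8% in all. Of the 140 positive genes, 109 fell and 10 rose in WT. In AtC3H26 OX, 40 of the 140 fell and 57 rose. Their median NaCl response was -0.75 in WT and 0.09 in AtC3H26 OX, beside -0.02 and 0.00 for all genes. Of the 157 negative genes, 129 rose and 17 fell in WT, and 77 rose and 45 fell in AtC3H26 OX. Their median NaCl response was 1.32 in WT and 0.20 in AtC3H26 OX. The response was smaller in size in AtC3H26 OX than in WT for 92 of the positive and 124 of the negative genes, beside 10994 of all 20878 genes. In both lines, but with opposite signs, 26 positive and 17 negative genes were called, of 59 such genes among all 20878. The counts and medians of the 140 and 157 genes rest on the libraries that gave the interaction and only describe it.

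Among the 15 positive genes of largest size, 13 had a lower mean in untreated AtC3H26 OX than in untreated WT, and they included genes of lipid transfer, the cell wall and carbon use. The count of 13 rests on the libraries that gave the interaction and only describes it. These 13 also had a lower mean in untreated AtC3H3 OX than in untreated WT. For AT5G46900 the untreated means were 16.7 FPKM in AtC3H3 OX, 9.61 in AtC3H26 OX and 34.8 in WT. AT5G46900 and its neighbour AT5G46890, both on chromosome 5, encode lipid-transfer-like proteins. AT5G46900 had 37.1, 33.8, 34.7 and 33.6 FPKM in untreated WT, 3.37 and 3.04 in WT with NaCl, 10.8 and 8.47 in untreated AtC3H26 OX, and 6.51 and 5.57 in AtC3H26 OX with NaCl. It was thus lower in AtC3H26 OX without NaCl and higher with NaCl, with no overlap, and the interaction was 2.50 (standard error 0.15, adjusted p = 0.000243). AT5G46890 showed the same order of groups, from 40.0 to 48.6 FPKM in untreated WT to 6.01 and 6.67 in WT with NaCl, and from 12.6 and 14.5 to 8.18 and 7.40 FPKM in AtC3H26 OX (interaction 1.90, adjusted p = 0.000677). The counting could divide reads between such neighbours of 1 family, so the level of each alone is uncertain.

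FTM1 (AT1G43800), an acyl-carrier-protein desaturase, had 9.35, 11.8, 10.7 and 11.4 FPKM in untreated WT, against 6.77 and 6.82 after NaCl. In AtC3H26 OX it had 2.45 and 2.08 FPKM untreated and 10.6 and 11.4 FPKM with NaCl. It therefore fell in WT (-0.60, adjusted p = 0.000793) and rose in AtC3H26 OX (1.88, adjusted p = 2.35e-06), with an interaction of 2.47 (standard error 0.15, adjusted p = 0.000243). ICL (AT3G21720), the isocitrate lyase of the glyoxylate cycle, had 5.43 and 4.96 FPKM in set 1 of untreated WT, 9.12 and 7.88 in set 2, and 5.23 and 5.63 in WT with NaCl. It had 1.85 and 1.50 FPKM in untreated AtC3H26 OX and 10.1 and 11.1 with NaCl. Its NaCl response was -0.25 in WT (adjusted p = 0.313) and 2.12 in AtC3H26 OX (adjusted p = 9.09e-05), and the interaction was 2.38 (standard error 0.31, adjusted p = 0.00976). This call was lost without any 1 of the 4 NaCl libraries, and without replicate 2 of untreated AtC3H26 OX.

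AT3G21460, a glutaredoxin, AT1G04770, a gene induced by sulphur deficiency, and AGP30, an arabinogalactan protein of the root cell wall, shared the low level in untreated AtC3H26 OX. AT3G21460 fell from between 14.1 and 16.7 FPKM to 1.50 and 1.30 FPKM in WT and from 3.93 and 3.53 to 1.55 and 1.87 FPKM in AtC3H26 OX (interaction 1.99, adjusted p = 0.000677). AT1G04770 fell from between 34.6 and 40.8 FPKM to 11.9 and 12.4 FPKM in WT and stood at 12.6 and 13.8 FPKM untreated and 13.8 and 14.4 FPKM with NaCl in AtC3H26 OX (interaction 1.68, adjusted p = 0.000677). With NaCl the difference between the lines did not pass the test for either, at 0.17 (adjusted p = 0.57) and 0.20 (adjusted p = 0.393). AGP30 had 29.7, 29.7, 39.2 and 37.3 FPKM in untreated WT, 15.8 and 15.2 with NaCl, 12.9 and 12.4 in untreated AtC3H26 OX and 22.2 and 22.3 with NaCl. It fell in WT and rose in AtC3H26 OX, with an interaction of 1.84 (adjusted p = 0.00221). The calls of AT5G46900, AT5G46890, FTM1, AT3G21460, AT1G04770 and AGP30 held when each library was left out in turn.

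The other named positive genes were lower in level or lost the call when a library was left out. CLE5, a gene for a signalling peptide, had 5.43 to 8.52 FPKM in untreated WT and 6.43 and 6.61 FPKM with NaCl, and 1.87 and 1.16 FPKM untreated and 7.81 and 6.62 FPKM with NaCl in AtC3H26 OX (interaction 1.75, adjusted p = 0.0193). NOGC1, a flavin monooxygenase reported to act as a guanylate cyclase, was higher in AtC3H26 OX than in WT with NaCl, by 2.81 (adjusted p = 0.00135). It had 0.242 to 0.520 FPKM in untreated WT, 0.676 and 1.17 in WT with NaCl, 1.94 and 0.897 in untreated AtC3H26 OX, and 11.8 and 13 in AtC3H26 OX with NaCl (interaction 2.03, adjusted p = 0.0142). AT4G12490 and AT4G12500, again neighbours of a lipid-transfer family, had interactions of 1.67 (adjusted p = 0.0287) and 1.94 (adjusted p = 0.0366) at levels of at most 5.46 FPKM, and AT4G12490 was likewise higher in AtC3H26 OX with NaCl. AT4G25250, which encodes an inhibitor of the invertase and pectin methylesterase family, had an interaction of 2.06 (adjusted p = 0.0172), AT3G59370 of 2.16 (adjusted p = 0.0173) and AT1G12805 of 1.91 (adjusted p = 0.0469). CLE5, AT4G12490, AT4G12500, AT4G25250 and AT1G12805 lost the call without any 1 of the NaCl libraries and without 1 or both of the untreated AtC3H26 OX libraries, AT3G59370 without any 1 of the NaCl libraries, and NOGC1 without replicate 1 of WT with NaCl or either replicate of AtC3H26 OX with NaCl. AT4G12490 also lost it without replicate 2 of set 1 of WT, AT4G12500 without replicate 1 of set 1 or replicate 2 of set 2, and AT1G12805 without any untreated WT library other than replicate 2 of set 2.

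The value of largest size belonged to AT4G00975, an antisense RNA gene of 1286 bp on chromosome 4, with 3.3 to 8.86 FPKM in untreated WT, 1.1 and 3.53 in WT with NaCl, 0.159 and 0 in untreated AtC3H26 OX, and 15.7 and 13.3 in AtC3H26 OX with NaCl (interaction 5.01, standard error 0.55, adjusted p = 0.00485). The library kit keeps strand, but whether the FPKM were counted by strand is not given in the sources used here, so reads of its partner on the other strand cannot be told apart. A pair of positive genes outside the rule for named genes, chosen after their values were seen, belongs to alcohol fermentation. AT4G33070, a pyruvate decarboxylase, rose from between 6.64 and 7.54 to 13.5 and 13.3 FPKM in WT and from 2.93 and 2.70 to 14.6 and 15.7 FPKM in AtC3H26 OX (interaction 1.25, adjusted p = 0.00172). ADH1, alcohol dehydrogenase, rose from between 13 and 13.9 to 274 and 276 FPKM in WT and from 4.69 and 4.13 to 154 and 152 FPKM in AtC3H26 OX. ADH1 was thus lower in AtC3H26 OX in both treatments, with log2 differences of -1.41 and -0.84, and its positive interaction of 0.57 (adjusted p = 0.0196) came from the larger difference without NaCl. The call of ADH1 was lost without any 1 of the NaCl libraries or without replicate 2 of untreated AtC3H26 OX.

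**Figure D2:**
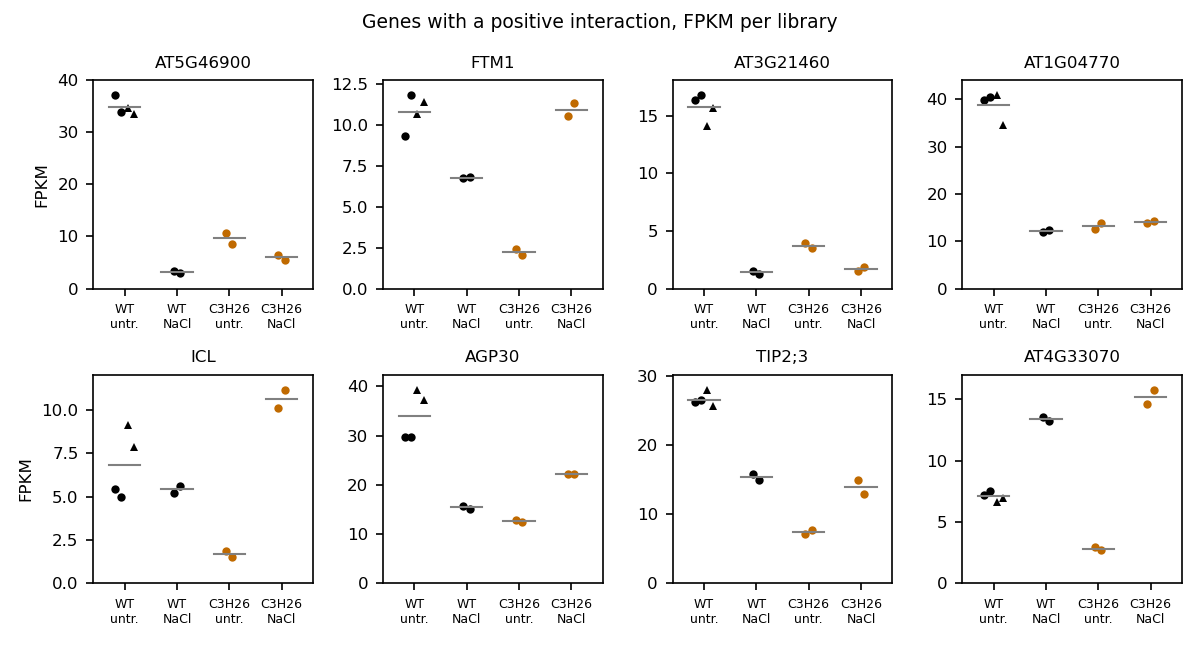
FPKM per library (vertical axis, from 0) of 8 genes with a positive interaction in untreated (untr.) and NaCl-treated WT (black) and AtC3H26 OX (orange, C3H26). Points are libraries, triangles are set 2 of untreated WT and grey lines are group means. The 2 untreated AtC3H26 OX libraries lie below all 4 untreated WT libraries in each panel.

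Among the 15 negative genes of largest size, 12 rose with NaCl in WT, beside 27.3% of all genes. In untreated AtC3H26 OX 14 were called higher than in untreated WT, beside 1.77% of all genes. Both counts rest on the libraries that gave the interaction and only describe it. TAT3 (AT2G24850), a tyrosine aminotransferase induced by wounding and jasmonate, had 0.259, 0.172, 0.0212 and 0.0242 FPKM in untreated WT, against 9.62 and 9.56 after NaCl. It had 4.25 and 4.78 FPKM in untreated AtC3H26 OX and 7.72 and 5.90 with NaCl. It thus rose by 3.25 in WT and by 0.49 in AtC3H26 OX on the log2 scale (adjusted p = 1.21e-07 and 0.0254), with an interaction of -2.75 (standard error 0.20, adjusted p = 0.000677). AT5G19110, of the aspartyl protease family, had 0.671 to 1.60 FPKM in untreated WT, 46.3 and 48.3 with NaCl, 9.54 and 8.55 in untreated AtC3H26 OX, and 31.8 and 33.8 with NaCl (interaction -2.66, adjusted p = 0.00221).

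MSRB8, a methionine sulfoxide reductase that repairs oxidised proteins, had 0 to 0.642 FPKM in untreated WT, 6.66 and 5.86 with NaCl, 5.76 and 4.01 in untreated AtC3H26 OX, and 5.65 and 3.65 with NaCl (interaction -2.65, adjusted p = 0.0126). It therefore rose in WT and stayed at a like level in AtC3H26 OX, where the difference of -0.07 had an adjusted p of 0.861. Its family member MSRB7, named after its values were seen, rose from between 6.83 and 7.62 to 57.0 and 60.8 FPKM in WT and from 31.1 and 26.7 to 48.6 and 50.2 FPKM in AtC3H26 OX (interaction -2.09, standard error 0.11, adjusted p = 0.000226). GSTU12, a glutathione transferase, had at most 0.580 FPKM in untreated WT, 2.29 and 2.58 with NaCl, 4.19 and 4.93 in untreated AtC3H26 OX and 1.63 and 1.76 with NaCl. It rose in WT and fell in AtC3H26 OX, with an interaction of -2.36 (adjusted p = 0.00172). The peroxidase gene PRX52 also rose in WT and fell in AtC3H26 OX (interaction -2.40, adjusted p = 0.00519). The peroxidase gene AT4G36430 rose in WT, and its change of -0.55 in AtC3H26 OX did not pass the test (adjusted p = 0.0735, interaction -2.46, adjusted p = 0.00743). AT4G36430 had 2.01 to 3.92 FPKM in untreated WT, 12.8 and 13.7 with NaCl, and 18.6 and 18.9 untreated against 12.2 and 12.9 with NaCl in AtC3H26 OX. MSRB8 lost the call without either WT library with NaCl, without replicate 2 of AtC3H26 OX with NaCl or without replicate 1 of untreated AtC3H26 OX, and AT4G36430 without replicate 2 of WT with NaCl.

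Other negative genes were regulators and enzymes at or near 0 in untreated WT. AT4G37710, a VQ-motif gene, was listed at 0 in all 4 untreated WT libraries and, after NaCl, at 4.76 and 7.50 FPKM in WT. It had 1.55 and 1.49 in untreated AtC3H26 OX, and 1.77 and 0.379 with NaCl (interaction -3.18, adjusted p = 0.00851). AT3G44870, a gene of the carboxyl methyltransferase family, had at most 0.104 FPKM in untreated WT, 5.09 and 5.29 with NaCl, 3.6 and 2.09 in untreated AtC3H26 OX, and 2.00 and 1.21 with NaCl (interaction -3.15, adjusted p = 0.00172). Both rose in WT and did not pass the test in AtC3H26 OX (adjusted p = 0.336 and 0.0547). AT3G53600, a C2H2 zinc-finger gene, rose from at most 0.0867 to 5.85 and 6.51 FPKM in WT and stood at 0.273 and 1.18 against 1.57 and 1.48 FPKM in AtC3H26 OX (interaction -2.18, adjusted p = 0.0119). AT2G26380, a leucine-rich repeat gene, had an interaction of -2.15 (adjusted p = 0.00172), and AT5G52670, a gene with a heavy-metal domain, of -2.15 (adjusted p = 0.00819). AT5G52670 stood at 4.52 and 4.94 FPKM in untreated AtC3H26 OX and at or below 0.806 FPKM in the other 8 libraries. AT4G37710 lost the call without replicate 2 of WT with NaCl or of untreated AtC3H26 OX, AT3G53600 without any 1 of the NaCl libraries, and AT5G52670 without either WT library with NaCl or either untreated AtC3H26 OX library.

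A few of the largest negative values belonged to short or noncoding genes at low levels. AT5G08865, a snoRNA gene of 139 bp, was listed at 0 in every one of the 10 libraries but the untreated AtC3H26 OX libraries, which had 8.81 and 10.6 FPKM (interaction -3.41, adjusted p = 0.000226). In AtC3H3 OX its replicates stood at 6.96 and 0 FPKM untreated and at 8.07 and 0 FPKM with NaCl. A gene shorter than the sequenced fragments gives unstable FPKM, and no fold is given against 0. The pseudogene AT2G13146 (215 bp) and the long noncoding RNA AT2G08825 (323 bp) had at most 2.93 and 4.77 FPKM, with interactions of -2.38 (adjusted p = 0.0193) and -2.15 (adjusted p = 0.0391). AT5G08865 lost its call without either untreated AtC3H26 OX library, AT2G13146 without any 1 of the AtC3H26 OX libraries, and AT2G08825 without any 1 of the 10 libraries other than replicate 2 of set 1 of WT. In RefSeq 136 of the 140 positive and 143 of the 157 negative genes were protein coding.

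**Figure D3:**
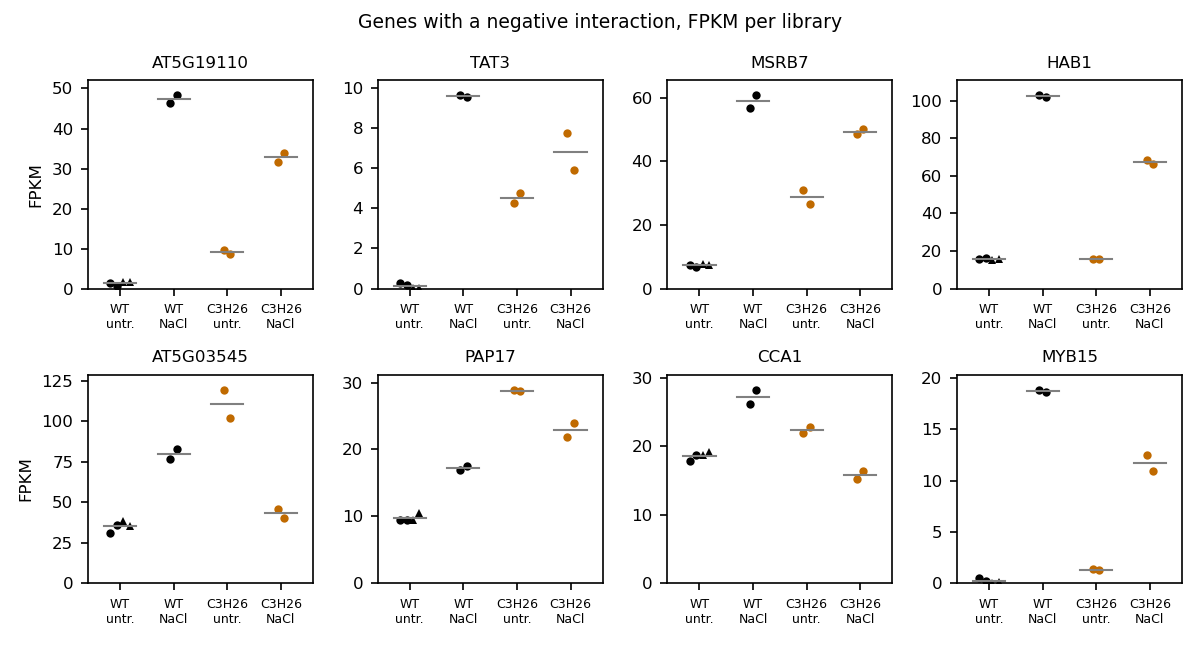
FPKM per library (vertical axis, from 0) of 8 genes with a negative interaction, with groups, points and lines as in the plot of positive genes. In AT5G19110, TAT3, MSRB7 and MYB15 the rise with NaCl was larger in WT, in HAB1 the untreated levels were alike, and in AT5G03545, PAP17 and CCA1 the level rose in WT and fell in AtC3H26 OX.

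HAB1 and a few genes chosen after their values were seen had a smaller rise in AtC3H26 OX. The untreated levels of HAB1 and MAPKKK18 overlapped between the lines. Those of ADC2 and BHLH92 were higher in AtC3H26 OX, without overlap. HAB1 (AT1G72770), a PP2C phosphatase that restrains ABA signalling, had 15.1 to 16.3 FPKM in untreated WT and 15.5 and 15.7 in untreated AtC3H26 OX. With NaCl it reached 103 and 102 FPKM in WT and 68.6 and 66.5 FPKM in AtC3H26 OX, with no overlap (interaction -0.58, standard error 0.08, adjusted p = 0.0103). It was the only member called among 25 tested genes of the ABA signalling core, beside 1.42% of all genes. The median interaction of the core was -0.12 beside -0.0018 for all genes. The next by p were SNRK2.6, HAI2 and HAI3 (-0.36, -0.56 and -0.57, adjusted p = 0.151, 0.145 and 0.202), of which SNRK2.6 passed against set 1 alone (adjusted p = 0.048). MAPKKK18, an ABA-activated kinase gene, and ADC2, an arginine decarboxylase of polyamine synthesis, were named after their values were seen. MAPKKK18 had 0.567 to 0.742 FPKM in untreated WT and 0.534 and 0.629 in untreated AtC3H26 OX, and reached 39.6 and 39.8 FPKM in WT against 19.3 and 18.7 FPKM in AtC3H26 OX with NaCl (interaction -0.98, adjusted p = 0.00912). ADC2 rose from between 79.7 and 90.3 to 657 and 655 FPKM in WT and from 95.9 and 96.1 to 461 and 462 FPKM in AtC3H26 OX (interaction -0.68, adjusted p = 0.0103). BHLH92, a basic helix-loop-helix gene also chosen after its values were seen, rose from at most 0.0713 to 9.42 and 10.6 FPKM in WT and from 0.289 and 0.170 to 2.61 and 2.42 FPKM in AtC3H26 OX (interaction -1.92, adjusted p = 0.00172). HAB1 and ADC2 lost the call without any 1 of the 6 libraries other than untreated WT, and MAPKKK18 without any of these but replicate 1 of untreated AtC3H26 OX.

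The marker genes of salt and dehydration did not pass the test with the WT sets pooled, and some passed against each set alone. All 16 tested genes of the list of ABA and dehydration markers rose with NaCl in both lines. Of all genes, 27.3% rose in WT and 25.0% in AtC3H26 OX. In untreated AtC3H26 OX 13 of the 16 were called lower than in WT (2.44% of all genes). With NaCl 4 were called lower (0.575% of all genes), and 0 were called for the interaction. At an unadjusted p under 0.05, 2 were positive and 1 negative, beside 1658 and 1447 of all 20878 genes, and the median was 0.21. RD29A had 74.9 and 70.5 FPKM in set 1 of untreated WT, 138 and 116 in set 2, and 43.4 and 43.5 in untreated AtC3H26 OX, and reached 2353 and 2412 FPKM in WT and 1862 and 1797 FPKM in AtC3H26 OX with NaCl (interaction 0.74, adjusted p = 0.391). KIN1 and COR15A, which protect cells in cold and drought, had values of 1.05 (adjusted p = 0.178) and 0.93 (adjusted p = 0.323). In untreated AtC3H3 OX, RD29A had 49.5 and 49.7 FPKM, KIN1 7.35 and 5.50, and COR15A 34.8 and 30.3. These lay below every untreated WT library, and RD22, at 235 and 232 FPKM, lay within the WT range. Against AtC3H3 OX, the NaCl response was called higher for 0 of the 16 and lower for 4 (3.79% and 3.65% of all genes), with a median of -0.20. RD29A passed against set 1 alone (0.35, adjusted p = 0.0107), set 2 alone (1.14, adjusted p = 0.00151) and the sets as separate groups (adjusted p = 0.00369). KIN1 also passed in all of these (adjusted p = 0.0426, 0.0118 and 0.0166), and COR15A against set 2 alone (adjusted p = 0.00203) and the separate sets (adjusted p = 0.00517). These settings leave the difference between the WT sets out of the spread. They called 2141, 1687 and 1493 genes in all, against 297 with the sets pooled. A gene that passed only in them, here or elsewhere, is not counted as called. RD29B, RD22, DREB2A and DREB2B had 0.23, -0.19, -0.20 and -0.11 (adjusted p between 0.311 and 0.851), and none of these passed with any choice of sets. The name RAB18 stands for more than 1 gene in the files, and no value is given.

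The other lists of NaCl-induced regulators and sugars held no calls with the WT sets pooled. None of 9 CBF and DREB2 factors was called by limma, and 2 were negative at an unadjusted p under 0.05, with a list median of -0.17. DREB2C reached 31.4 and 31.5 FPKM in WT and 20.0 and 18.3 in AtC3H26 OX with NaCl (interaction -0.78, adjusted p = 0.0516), and DDF1 reached 17.1 and 17.2 against 10.5 and 8.60 FPKM (interaction -0.72, adjusted p = 0.0889). Of the genes of galactinol and raffinose synthesis, which make protective sugars, 6 were tested, 0 were called and 3 were negative at an unadjusted p under 0.05, with a median of -0.67. GOLS2 reached 64.9 and 59.2 FPKM in WT and 31.3 and 30.0 in AtC3H26 OX (interaction -0.67, adjusted p = 0.162), and GOLS1 had an interaction of -0.55 (adjusted p = 0.0755). GOLS3 and GOLS4 had -0.67 and -0.71 (adjusted p = 0.502 and 0.25). Against set 1 alone, set 2 alone and separate sets, DREB2C (adjusted p = 0.0129, 0.0333 and 0.0226) and GOLS1 (adjusted p = 0.00589, 0.0305 and 0.00818) passed. DDF1 passed against set 1 alone (adjusted p = 0.0312) and separate sets (adjusted p = 0.0435), and GOLS3 against set 1 alone (adjusted p = 0.00615).

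Jasmonate genes were called in both directions. Of 18 tested genes of jasmonate synthesis and response, 1 was positive and 1 negative (0.671% and 0.752% of all genes), with a median of -0.34. AOC2, an allene oxide cyclase of jasmonate synthesis, was alike untreated (97.9 to 104 FPKM in WT, 97.1 and 99.5 in AtC3H26 OX) and rose further in AtC3H26 OX, to 433 and 423 FPKM against 314 and 309 FPKM in WT (interaction 0.50, adjusted p = 0.0132). LOX2, which acts before it in the pathway, had 0.83 (adjusted p = 0.0914) and JAR1, which conjugates jasmonate, had -0.41 (adjusted p = 0.0872). Both passed against each WT set alone, LOX2 with adjusted p of 0.000101 and 0.00329 and JAR1 with 0.00175 and 0.0243. JAZ10, a repressor of the jasmonate response, had 1.84 to 2.89 FPKM in untreated WT and 5.73 and 6.51 in untreated AtC3H26 OX, and reached 23.6 and 26.4 against 27.0 and 25.7 FPKM with NaCl (interaction -1.04, adjusted p = 0.0344). Among 25 rapid touch and wound genes, MYB15, a factor of cold and defence responses, was the only call, beside 1.42% of all genes. It rose from at most 0.549 to 18.8 and 18.7 FPKM in WT and from 1.36 and 1.33 to 12.5 and 11 FPKM in AtC3H26 OX (interaction -1.61, adjusted p = 0.0193), while the list median was 0.18. That median rests on the choice of WT, since it was 1.04 against set 1 alone and -0.81 against set 2 alone. The touch and wound list was chosen with earlier results of these data known, so its medians and counts only describe it. AOC2, JAZ10 and MYB15 each lost the call without any 1 of the 6 libraries other than untreated WT, and JAZ10 also without replicate 1 of either untreated WT set. In AtC3H3 OX, AOC2 had 67.5 and 72.4 FPKM untreated and 308 and 312 with NaCl. The NaCl response of AOC2 in AtC3H26 OX minus that in AtC3H3 OX was -0.02 (limma, adjusted p = 0.864).

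The phosphate starvation list held negative values throughout. The list of 22 genes was drawn up after the values had been seen, so its counts only describe it. Of 20 tested, 6 were called negative and 0 positive (0.752% and 0.671% of all genes). The median was -0.65, and values ran from -2.50 to -0.05. In untreated AtC3H26 OX 15 of the 20 were called higher than in WT (1.77% of all genes). With NaCl 2 were called higher and 1 lower (0.330% and 0.575% of all genes). AT5G03545, known as AT4, encodes an RNA of the family that binds the microRNA controlling phosphate transport. It had 30.8, 36.0, 38.4 and 35.5 FPKM in untreated WT, 76.9 and 82.6 with NaCl, 119 and 102 in untreated AtC3H26 OX, and 45.7 and 40.6 with NaCl. It rose in WT by 1.16 and fell in AtC3H26 OX by 1.33 on the log2 scale, with an interaction of -2.50 (standard error 0.15, adjusted p = 0.000243). PAP17, an acid phosphatase, had 9.45 to 10.5 FPKM in untreated WT, 16.9 and 17.55 with NaCl, 28.9 and 28.8 in untreated AtC3H26 OX, and 21.8 and 23.9 with NaCl (interaction -1.09, adjusted p = 0.00215). The calls of AT5G03545 and PAP17 held without each library in turn.

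The remaining phosphate genes called were a transporter, SPX proteins and a lipid enzyme. G3Pp1, a glycerol-3-phosphate permease, rose from between 9.94 and 13 to 24.8 and 24.5 FPKM in WT and stood at 28.9 and 27.8 untreated and 23.8 and 21.9 FPKM with NaCl in AtC3H26 OX (interaction -1.37, adjusted p = 0.00679). SPX1, a sensor that inhibits the phosphate starvation response, fell from between 28.6 and 31.2 to 12.3 and 12.4 FPKM in WT and from 68.0 and 72.0 to 13.8 and 17.55 FPKM in AtC3H26 OX (interaction -0.88, adjusted p = 0.0176). SPX3 had at most 0.955 FPKM in every group other than untreated AtC3H26 OX, which had 5.23 and 5.70 (interaction -1.70, adjusted p = 0.0334). SQD2, which makes sulfolipids that stand in for phospholipids, fell from between 32.3 and 34.5 to 18.7 and 19.1 FPKM in WT and from 68.5 and 67.0 to 25.5 and 26.1 FPKM in AtC3H26 OX (interaction -0.57, adjusted p = 0.0119). SQD2 lost its call without any 1 of the 6 libraries other than untreated WT, SPX1 without either WT library with NaCl or either untreated AtC3H26 OX library, SPX3 without any library other than replicate 2 of set 1 of WT and replicate 2 of AtC3H26 OX with NaCl, and G3Pp1 without replicate 2 of AtC3H26 OX with NaCl.

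Genes of mitosis and cytokinesis were mostly positive, on a list that was also drawn up after the values had been seen. Of 20 tested, 6 were called positive and 0 negative (0.671% and 0.752% of all genes), with a median of 0.67. In WT 19 of the 20 fell with NaCl (27.5% of all genes), and in AtC3H26 OX 11 fell (22.8% of all genes). HIK, a kinesin of the division plane, fell from between 8.43 and 9.96 to 3.26 and 3.57 FPKM in WT and from 6.52 and 6.10 to 5.14 and 5.07 FPKM in AtC3H26 OX (interaction 0.92, adjusted p = 0.0122). CSLD5, which builds the wall of the cell plate, fell from between 15.5 and 16.7 to 7.05 and 6.88 FPKM in WT and from 13.9 and 11.9 to 10.3 and 10.8 FPKM in AtC3H26 OX (interaction 0.84, adjusted p = 0.0103). Between the lines, HIK differed by -0.46 without NaCl (adjusted p = 0.0193) and 0.47 with NaCl (adjusted p = 0.0623), and CSLD5 by -0.31 (adjusted p = 0.0511) and 0.53 (adjusted p = 0.0261). PLE, a microtubule bundler, MAD2, of the spindle checkpoint, CYCB1;2, a mitotic cyclin, and TOPII, a topoisomerase, had 0.72, 0.77, 0.68 and 0.51 (adjusted p between 0.0248 and 0.0406). Each of the 6 lost its call without any 1 of the 4 NaCl libraries, and all but CSLD5 also without 1 or both untreated AtC3H26 OX libraries. MAD2, TOPII and CYCB1;2 lost it too without 3, 3 and 4 of the untreated WT libraries, of which replicate 1 of set 1 and replicate 2 of set 2 were common to them.

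The root markers changed between the same groups of libraries. Whole seedlings were sequenced, and in such bulk samples fewer cells of a type and less RNA per cell cannot be told apart. The 14 root markers were above 0 in every library. Their FPKM summed to 257 and 265 in set 1 and 321 and 295 in set 2 of untreated WT, 178 and 173 in WT with NaCl, 164 and 151 in untreated AtC3H26 OX, and 183 and 184 in AtC3H26 OX with NaCl. The sum was thus lower with NaCl than without in WT and higher with NaCl than without in AtC3H26 OX, and in AtC3H3 OX it was 204 and 201 untreated and 184 and 187 with NaCl. The water channel gene TIP2;2 gave 122 of the 257 FPKM in replicate 1 of set 1, so the sums largely follow it. Taken gene by gene, 6 of the 14 rose and 4 fell with NaCl in AtC3H26 OX, beside 25.0% and 22.8% of all genes. In WT 0 rose and 6 fell, beside 27.3% and 27.5% of all genes. Of the 14, 3 were called positive and 0 negative for the interaction (0.671% and 0.752% of all genes), and the median was 0.71. At an unadjusted p under 0.05, 8 were positive, beside 1658 of all 20878 genes. In untreated AtC3H26 OX 8 of the 14 were called lower than in WT (2.44% of all genes).

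The root markers called were 2 water channels of the vacuole and a protein of the Casparian strip. TIP2;3 had 25.5 to 27.9 FPKM in untreated WT, 15.7 and 15 with NaCl, 7.08 and 7.73 in untreated AtC3H26 OX, and 15 and 12.9 with NaCl (interaction 1.58, standard error 0.11, adjusted p = 0.000677). TIP2;2 had 122 to 164 FPKM in untreated WT, 81.9 and 76.9 with NaCl, 72.8 and 66.3 in untreated AtC3H26 OX, and 87.6 and 85.5 with NaCl (interaction 1.1, adjusted p = 0.0199). CASP4 was at 4.19 to 5.24, 5.38 and 6.05, 2.03 and 1.75, and 5.53 and 6.57 FPKM in the same order (interaction 1.07, adjusted p = 0.0193). Over the 14 markers the values ran from 0.01 to 1.58. Whether the positive genes above changed within root cells or with the share of root in a sample was not tested. TIP2;2 and CASP4 lost the call without any 1 of the 6 libraries other than untreated WT.

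**Figure D4:**
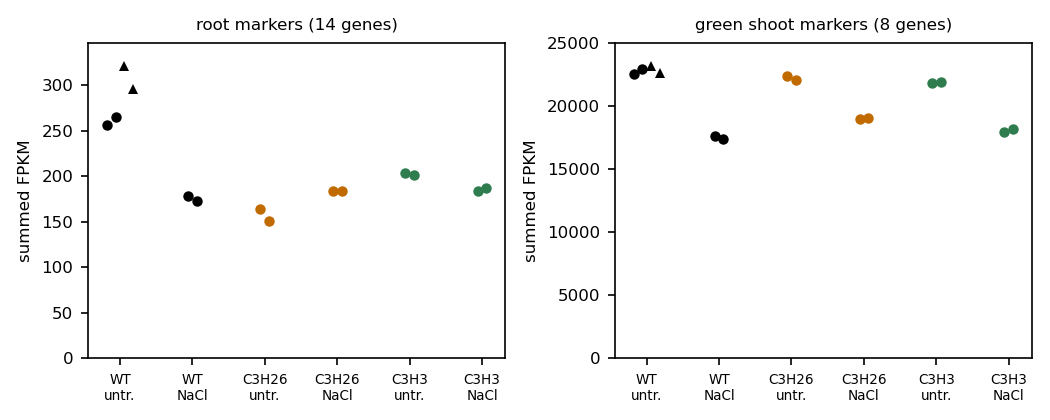
Summed FPKM (vertical axis, from 0) of 14 root markers and 8 green shoot markers in each library of WT (black, triangles for set 2), AtC3H26 OX (orange) and AtC3H3 OX (green), untreated (untr.) and with NaCl. The root sum is lowest in untreated AtC3H26 OX, at 164 and 151, and the green shoot sum is lower with NaCl than without in each line.

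The other marker lists held no calls. The 8 green shoot markers summed to 22491 to 23171 FPKM in untreated WT and 22403 and 22043 in untreated AtC3H26 OX, and to 17612 and 17359 in WT and 18930 and 19076 in AtC3H26 OX with NaCl, with 0 of 8 called and a median interaction of 0.15. The 4 flower organ markers summed to at most 6.41 FPKM and the 4 seed markers to at most 0.727 FPKM in the 10 libraries, of which 1 and 0 genes passed the filter. The flower marker tested, SEP3, had an interaction of 0.92 and was not called (adjusted p = 0.478).

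Of the clock genes, the morning genes CCA1 and LHY were called. CCA1 had 17.8 to 19.2 FPKM in untreated WT, 26.2 and 28.2 with NaCl, 22.0 and 22.9 in untreated AtC3H26 OX, and 15.2 and 16.4 with NaCl. It rose in WT and fell in AtC3H26 OX, with an interaction of -1.0 (standard error 0.09, adjusted p = 0.00215), and kept its call without each library in turn. LHY fell from between 4.82 and 6.28 to 2.1 and 1.39 FPKM in WT and from 11.8 and 11.3 to 1.45 and 1.59 FPKM in AtC3H26 OX (interaction -1.08, adjusted p = 0.0377). LNK1 and LNK2, partners of the morning factors, had -0.48 and -0.30 (adjusted p = 0.21 and 0.223), and passed against set 1 alone (adjusted p = 0.00297 and 0.0182) and the separate sets (adjusted p = 0.0142 and 0.0413). Of 19 clock genes tested 2 were negative and 0 positive (0.752% and 0.671% of all genes), with a median of -0.20. The hour of harvest is not given in the sources used here. LHY lost its call without any library other than replicate 2 of set 1 of WT.

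Each of the other lists held at most 1 call, where 1.42% of all genes were called. CYP707A2, which breaks down ABA, was 1 of 9 tested genes of ABA synthesis and breakdown and fell from between 10.5 and 11.8 to 5.38 and 6.23 FPKM in WT and from 16.6 and 17.5 to 3.85 and 4.91 FPKM in AtC3H26 OX (interaction -0.89, adjusted p = 0.0266, list median -0.03). HSP70, a heat shock chaperone, rose from between 23.1 and 30.2 to 52.6 and 52.1 FPKM in WT and stood at 36.4 and 36.4 untreated and 37.9 and 36.1 FPKM with NaCl in AtC3H26 OX (-0.87, adjusted p = 0.0302, 1 of 10 heat shock genes, list median 0.08). EXPA1, which loosens cell walls, had -0.55 (adjusted p = 0.0466, 1 of 13 genes of auxin response and wall loosening, list median -0.29). BGAL4, a galactosidase raised by darkness, had 0.96 (adjusted p = 0.0284, 1 of 15 dark and sugar starvation genes), and the ICL described above was 1 of 10 genes of the glyoxylate cycle (list median 0.12). SOT17 and UGT74B1, late enzymes of glucosinolate synthesis, had -0.60 (adjusted p = 0.0498, 1 of 26 aliphatic genes, list median -0.06) and -0.42 (adjusted p = 0.0323, 1 of 16 indole genes, list median -0.14). The next indole genes by p, IGMT1, CYP83B1 and CYP81F3, had -0.40, -0.30 and -0.47 (adjusted p between 0.141 and 0.23). IGMT1 passed against each WT set alone (adjusted p = 0.0379 and 0.0127), and CYP83B1 against set 1 alone (adjusted p = 0.00918).

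No member was called by limma among 12 genes of sodium transport, 9 of proline metabolism, 10 of salicylate and defence, 16 of the light-harvesting antenna, 6 of nitrate uptake and reduction, and 4 of AtC3H26, AtC3H3 and their close relatives. At an unadjusted p under 0.05, 0, 2, 1, 0, 1 and 0 of these were positive and 1, 2, 1, 1, 0 and 1 negative. Their medians were 0.03, 0.06, 0.17, 0.09, 0.19 and -0.15. List medians turned in sign against set 1 alone for sodium transport (-0.11), the antenna (-0.04), the aliphatic glucosinolate genes (0.17) and the dark and sugar starvation genes (0.20), and against set 2 alone for the heat shock genes (-0.26). The proline median was near 0 against either set. Of these genes, CYP707A2, BGAL4, SOT17, UGT74B1, HSP70 and EXPA1 lost the call without any 1 of the NaCl libraries of WT and without replicate 1 or 2 of untreated AtC3H26 OX. All but CYP707A2 lost it without either replicate of AtC3H26 OX with NaCl, and CYP707A2 without replicate 1 of it. SOT17, UGT74B1 and EXPA1 also lost it without replicate 1 of set 1 of WT, SOT17 and EXPA1 without replicate 2 of set 1, SOT17 without replicate 1 and EXPA1 without replicate 2 of set 2.

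**Figure D5:**
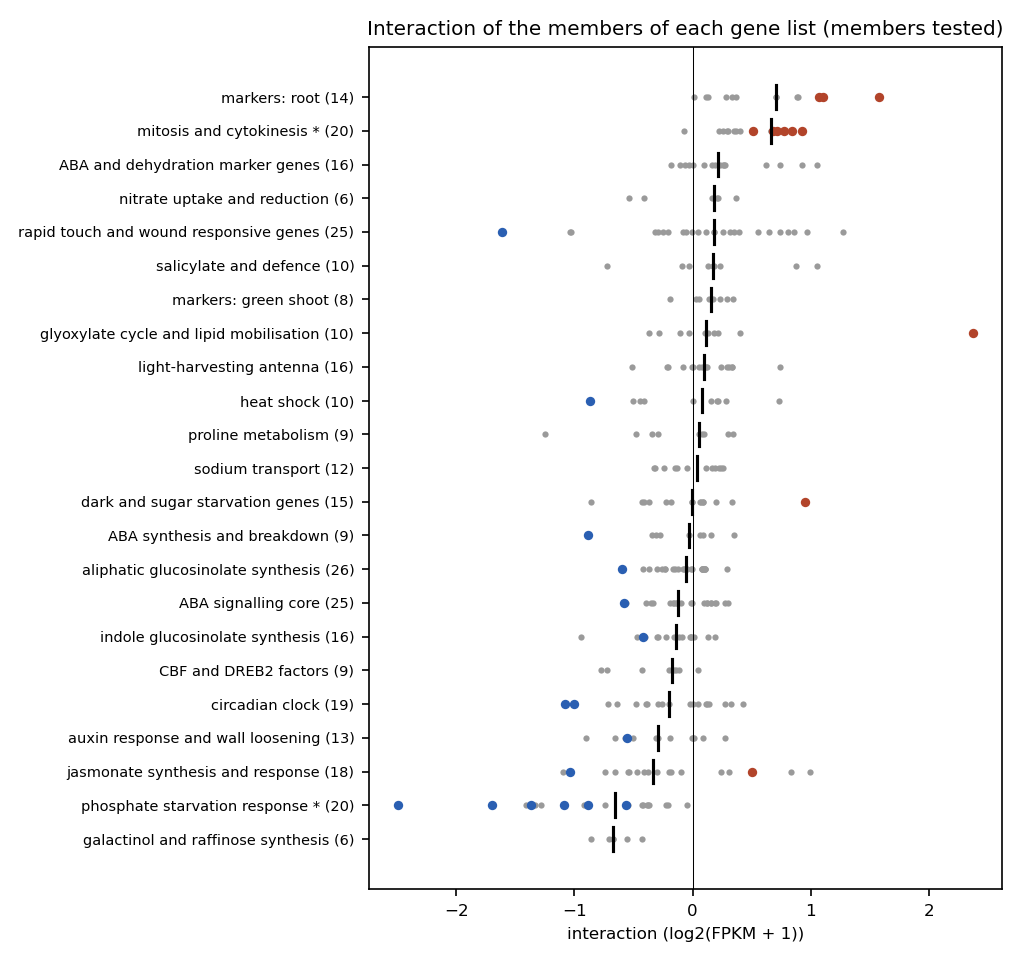
Interaction on the scale of log2(FPKM + 1) (horizontal axis) of each tested member of the lists with at least 6 tested genes (vertical axis, number tested in brackets). Each point is a gene, red points are called positive and blue points called negative, and black bars are list medians. Stars mark the 2 lists drawn up after the values were seen, whose medians were -0.65 and 0.67. The other lists were chosen with earlier results of these data known.

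The NaCl response of AtC3H26 OX was also set against that of AtC3H3 OX, which involves no WT library. In 8 libraries and 20624 genes, the response was higher in AtC3H26 OX for 781 genes (3.79%) and lower for 753 genes (3.65%), 7.44% in all. The counts fell to 90 and 164 with all 14 libraries in 1 fit, and leaving out 1 library gave 293 to 694 higher and 247 to 536 lower, both lowest without replicate 1 of untreated AtC3H3 OX. This comparison shares the 4 AtC3H26 OX libraries with the interaction above, so the values are given side by side and not as separate support. Of the genes called for the interaction, 291 were tested against AtC3H3 OX. The same sign was called for 158 of these, 62 positive and 96 negative, and the rest were not called with that sign. The genes named below therefore do not stand for all calls of the interaction. FTM1 had 4.28 and 4.97 FPKM in untreated AtC3H3 OX and 4.01 and 3.47 with NaCl, and the response of AtC3H26 OX exceeded that of AtC3H3 OX by 2.12 (adjusted p = 0.000632). ICL had 1.78 and 2.08 FPKM untreated and 1.84 and 2.25 with NaCl in AtC3H3 OX (difference 2.07, adjusted p = 0.00132). Both untreated levels in AtC3H3 OX thus lay below those of untreated WT. AT5G46900 had 15.9 and 17.397 FPKM untreated and 3.22 and 3.80 with NaCl (difference 1.38, adjusted p = 0.00608). AT3G21460 had 7.25 and 9.45 FPKM untreated and 3.67 and 2.97 with NaCl, and its difference of 0.30 did not pass the test (adjusted p = 0.435). AT5G46900 and AT3G21460 were likewise lower in untreated AtC3H3 OX than in untreated WT.

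Among the negative genes, AT5G19110 had 1.44 and 1.35 FPKM untreated and 31.1 and 30.7 FPKM with NaCl in AtC3H3 OX (difference -1.99, adjusted p = 0.000137). TAT3 had 0.347 and 0.424 against 6.84 and 7.84 FPKM (difference -2.09, adjusted p = 0.00174). MSRB7 had 7.91 and 5.56 against 44.6 and 45.2 FPKM (difference -1.83, adjusted p = 0.00274). In untreated AtC3H3 OX, AT5G19110 lay within the range of untreated WT, MSRB7 had 1 library above and 1 below it, and both libraries of TAT3 lay above it. AT5G03545 had 38.9 and 38.7 against 46.3 and 40.2 FPKM (difference -1.48, adjusted p = 0.00174) and PAP17 had 8.94 and 8.87 against 16.6 and 16.4 FPKM (difference -1.15, adjusted p = 0.00053). BHLH92 had 0.248 and 0 against 3.29 and 5.49 FPKM, and its difference of -0.72 did not pass the test (adjusted p = 0.217). In the phosphate list 16 of 20 tested genes were called lower and 0 higher in this comparison, beside 3.65% and 3.79% of all genes. The median of the list was -0.95. Of the root markers 3 of 14 were called higher and 0 lower (median 0.31), and of the mitosis list 2 of 20 were called higher and 0 lower (median 0.25).

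The rapid touch and wound list held more calls in the comparison with AtC3H3 OX than in that with the pooled WT sets. The response was higher in AtC3H26 OX for 18 of 25 tested genes and lower for 1, beside 3.79% and 3.65% of all genes. The median was 1.1 beside -0.01 for all genes. In the comparison with the pooled WT sets 0 were higher and 1 was lower. The median of the list against WT was 1.04 with set 1 alone and -0.81 with set 2 alone. The list was chosen with earlier results of these data known, and the difference between these counts was not tested. The AtC3H3 OX libraries also stood apart in the 4 flower organ markers, whose FPKM summed to 19.4 to 21 in them, against at most 6.41 in the 10 other libraries. The part of this difference in these counts was not tested.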

How the data were processed

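The authors trimmed paired-end reads with FASTX_Trimmer and BBMap, mapped them to TAIR10 with TopHat and estimated FPKM with Cufflinks. Tool versions are not given in the sources used here. The deposited values are FPKM per gene and library, with no counts. Genes carry names only, and 37309 of 37980 (98.2%) were matched to loci through unique RefSeq names. Members and gene lists were chosen with earlier results of these data known. Values were tested as log2(FPKM + 1) with limma 3.58.1 (trend, R 4.3.3) for genes of at least 1 FPKM in at least 2 libraries, with Benjamini-Hochberg adjustment over all genes tested. Fold changes on this scale understate those of genes near 1 FPKM. Every contrast with WT came from 1 fit of 10 libraries, and the comparison with AtC3H3 OX from 8. Genes were named as the 15 largest calls in each direction, fixed salt markers, list members called, and up to 4 members by p of the lists described. Genes outside this rule are stated as such, and 1 gene that it names is not reported here. The fit was tested on simulated data. Depth is unknown. Replicate numbers gave no pairing, since deviations of same-numbered libraries correlated by -0.047 to 0.082. Alternatives covered the WT sets, pseudocount, filter, scaling, trend, fit, block and each library left out.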

Additional observations from a re-analysis of the deposited data

Results flagged for a closer look

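The interaction is a test of the difference between the NaCl responses of AtC3H26 OX and WT, and so every gene it called was listed for a closer look, 140 positive and 157 negative in all. Of the genes named above, the largest positive values on the log2 scale were those of AT4G00975 (5.01), AT5G46900 (2.50), FTM1 (2.47), ICL (2.38), AT3G59370 (2.16), AT4G25250 (2.06), NOGC1 (2.03), AT3G21460 (1.99), AT4G12500 (1.94) and AT1G12805 (1.91). Further positive values were those of AT5G46890 (1.90), AGP30 (1.84), CLE5 (1.75), AT1G04770 (1.68), AT4G12490 (1.67), TIP2;3 (1.58), AT4G33070 (1.25), TIP2;2 (1.1), CASP4 (1.07) and BGAL4 (0.96). Further positive values were those of HIK (0.92), CSLD5 (0.84), MAD2 (0.77), PLE (0.72), CYCB1;2 (0.68), ADH1 (0.57), TOPII (0.51) and AOC2 (0.50). The largest negative values among the named genes were those of AT5G08865 (-3.41), AT4G37710 (-3.18), AT3G44870 (-3.15), TAT3 (-2.75), AT5G19110 (-2.66), MSRB8 (-2.65), AT5G03545 (-2.50), AT4G36430 (-2.46), PRX52 (-2.40) and AT2G13146 (-2.38). Further negative values were those of GSTU12 (-2.36), AT3G53600 (-2.18), AT5G52670 (-2.15), AT2G08825 (-2.15), AT2G26380 (-2.15), MSRB7 (-2.09), BHLH92 (-1.92), SPX3 (-1.70), MYB15 (-1.61) and G3Pp1 (-1.37). Further negative values were those of PAP17 (-1.09), LHY (-1.08), JAZ10 (-1.04), CCA1 (-1.0), MAPKKK18 (-0.98), CYP707A2 (-0.89), SPX1 (-0.88), HSP70 (-0.87), ADC2 (-0.68) and SOT17 (-0.60). Further negative values were those of HAB1 (-0.58), SQD2 (-0.57), EXPA1 (-0.55) and UGT74B1 (-0.42). 

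The NaCl response was likewise called higher in AtC3H26 OX than in AtC3H3 OX for 781 genes and lower for 753 genes.

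Within the 4 untreated WT libraries, 1 library stood apart from the other 3 in 2 of the named genes by Dixon's criterion, which chance alone meets in about 1 of 20 groups. AT1G04770 was lowest at 34.6 FPKM, and PAP17 was highest at 10.5 FPKM. Both lay far from the untreated AtC3H26 OX libraries.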

How the results depend on the processing

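The counts moved with the choice of untreated WT and with single libraries. Against set 1 alone, set 2 alone and both sets as separate groups, the interaction was positive in 1342, 649 and 761 genes and negative in 799, 1038 and 732 genes. Untreated AtC3H26 OX was then higher than WT in 921, 1623 and 1138 genes and lower in 2043, 1497 and 1742 genes, and with NaCl it was higher in 807, 384 and 566 genes and lower in 1034, 589 and 766 genes. Separate sets leave the difference between them out of the spread. With all 14 libraries in 1 fit, the interaction gave 335 positive and 322 negative genes, the untreated contrast 624 higher and 957 lower, the NaCl contrast 213 higher and 362 lower, and the comparison with AtC3H3 OX 90 higher and 164 lower, against 371 and 410 for the latter in limma without trend. The pseudocount of 0.1 left 103 negative interactions and 64 genes lower with NaCl, and the filter of 1 FPKM in every library, chosen after seeing the data, left 102 negative interactions. The cause of these changes was not tested.

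The labels repeat the replicate numbers 1 and 2, and a fit with the replicate block gave 71 positive and 94 negative interactions and 32 genes higher and 50 lower with NaCl. Numbers did not pair the libraries, so these counts are not read as weaker effects. At an unadjusted p under 0.05 and over 2-fold, the NaCl response counted 1799 genes higher and 989 lower in WT and 1640 and 990 in AtC3H26 OX, the untreated contrast 175 and 103, the NaCl contrast 50 lower, and the comparison with AtC3H3 OX 199 and 136.

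Leaving out each library in turn gave 23 to 144 positive and 29 to 152 negative interactions, 4440 to 5674 genes higher and 4172 to 5838 lower for the NaCl response of WT, 3911 to 5474 and 3402 to 4990 for that of AtC3H26 OX, 65 to 361 and 67 to 553 for the untreated contrast, 6 to 106 and 6 to 179 for the NaCl contrast, and 293 to 694 and 247 to 536 for the comparison with AtC3H3 OX. Fits that left 1 library in a group assumed that it varies like the others. Of 62 named genes called, 20 kept the call without each library in turn, and none changed sign under any alternative run. Of the 62, 50 kept the call with the pseudocount of 0.1, 56 without the filter, 59 under quantile normalization, 61 with a common median, 57 without trend, 61 with all 14 libraries and 48 with the replicate block, and 51 of the 53 still tested kept it at 5 FPKM. Some named values that were not called changed sign. The interaction of AtC3H3 was -0.0362 against set 2 alone and -0.0794 to 0.11 without 1 library. The interaction of DREB2B was 0.1035 with the pseudocount of 0.1 and -0.29 to 0.0592 without 1 library. AT2G08825, compared with AtC3H3 OX, had 0.8831 with the pseudocount of 0.1 and -0.5045 to 0.2412 without 1 library. Scalings moved the median of all genes by less than 0.1 on the log2 scale. FPKM without counts limit what can be said of genes near or below 1 FPKM.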
